A study of Mus musculus with 8 samples.

Results

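The genes described here are the replacement histone variants that lie outside the histone gene clusters of the mouse genome. They are the 9 rows of the count matrix whose Ensembl identifier maps to H3f3a, H3f3b, H2afx, H2afz, H2afv, H2afy, H2afy2, H2afj or Cenpa, of 43629 genes in all. The 8 libraries were made from the Eμ-Myc lymphoma lines #1.1 and #1.2, B lineage tumours driven by a Myc transgene under the immunoglobulin heavy chain enhancer, on the C57BL/6 background. Early passage cells of each line were held for 2 h in 250 nM JQ1, a small molecule that displaces BET proteins from acetylated chromatin, or in the solvent DMSO. The groups were line 1.1 JQ1, line 1.1 DMSO, line 1.2 JQ1 and line 1.2 DMSO, with 2 libraries each, and cells of all groups carry the same transgene. The labels do not say whether the replicates were separate cultures or whether the lines came from separate mice, so each p-value reflects only library-to-library spread, part or all of which may be technical.

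Most histone protein is made in S phase from clustered genes without introns, whose mRNAs end in a stem-loop in place of a poly(A) tail. Replacement variants are transcribed outside S phase as well, mostly as spliced and polyadenylated mRNAs, and they are exchanged into chromatin by their own chaperones. H3.3, encoded by both H3f3a and H3f3b, enters active genes through the HIRA complex and repeats through DAXX and ATRX. H2A.X is phosphorylated beside DNA breaks. H2A.Z flanks promoters, macroH2A carries a large globular domain and is enriched in silent chromatin, and CENP-A replaces H3 at centromeres.

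Gene reads summed to 10347453 to 13049877 per library. Of 12413 genes that passed the filter on low counts, 62.0% passed an adjusted p of 0.05 for the JQ1 effect averaged over the lines, 30.7% higher and 31.3% lower. A call by itself is therefore common in these data. Of 8 B lineage markers, which include Cd79a and Pax5, all passed the filter, summing to 1207 to 1374 CPM (reads per 1000000 reads of the scaled library) in JQ1 libraries and 1852 to 2018 CPM in DMSO libraries, and all 8 fell. In bulk RNA, fewer cells of a type and less RNA per cell cannot be told apart, and fold changes are relative to the reads of each library. Markers of other cells were near 0, with T cell markers summing to 0.0826 to 0.0912 CPM in JQ1 and 0 to 0.248 CPM in DMSO libraries, and with 4 of 6 at 0 reads in all libraries. Myeloid markers summed to 0.621 to 1.91 CPM in JQ1 and 1.15 to 2.08 CPM in DMSO libraries, with 2 of 5 at 0 reads. Erythroid markers summed to 0.182 to 0.532 CPM in JQ1 and 0.304 to 0.382 CPM in DMSO libraries, with 2 of 4 at 0. Stromal and endothelial markers summed to 0 to 0.352 CPM in JQ1 and 1.15 to 1.53 CPM in DMSO libraries, with 4 of 5 at 0. The 2 of these other-cell markers that passed the filter, Itgam (-0.70) and Cdh5 (-3.35), both fell, at levels near that filter. Cdh5 was the stromal or endothelial marker with reads and passed through its DMSO libraries alone. Its fall is therefore not independent of the filter.

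Of the 9 variant genes, 8 passed the filter, and all 8 were called for the averaged JQ1 effect, 5 higher and 3 lower. The median log2 change of these 8 was 0.29, against 0.004 over all genes tested. H3f3b rose 3.64-fold, H2afx rose 1.84-fold, and H3f3a, H2afv and H2afz rose 1.28-, 1.23- and 1.22-fold. H2afy, H2afj and Cenpa fell, each to at least 0.844 times the DMSO level. H2afy2, which encodes macroH2A2, had 3 reads in all 8 libraries (1 in a JQ1 library of line 1.2 and 2 in a DMSO library of the same line), and was not tested. With 3 reads as the floor, that puts each library with no read below 0.228 to 0.287 CPM, counting error only.

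**Figure D1:**
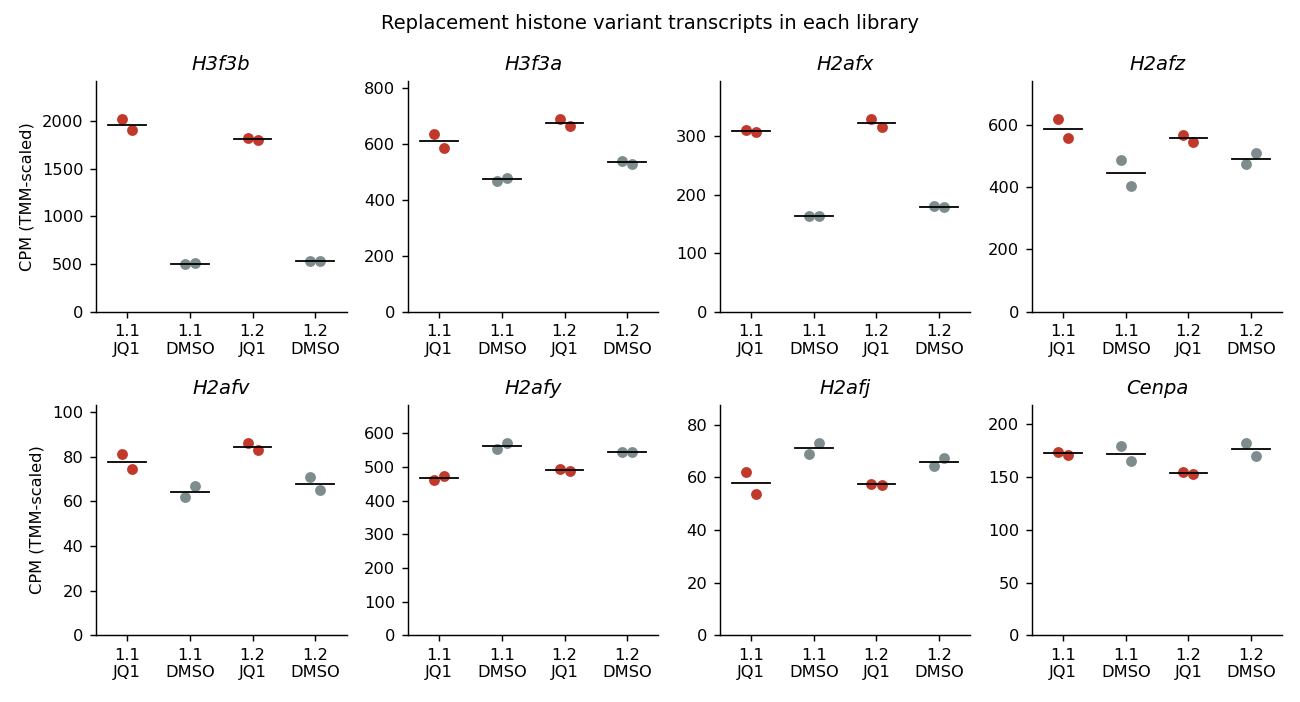
CPM of the 8 tested variant genes in each library, on linear axes that start at 0, with a dot for each of the 2 libraries of a group and a bar for their mean. H3f3b lies between 1800 and 2019 CPM in JQ1 libraries and between 496 and 532 CPM in DMSO libraries, while Cenpa is the gene whose JQ1 and DMSO libraries overlap in line 1.1.

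H3f3b and H3f3a encode the same protein from separate genes. H3f3b lies on chromosome 11 (GRCm38 chr11:116021912-116027962, minus strand) and H3f3a on chromosome 1 (chr1:180800832-180813943, minus strand). Their coding sequences are identical at 313 of 408 bases, with a longest shared run of 23 bases. Because these genes encode 1 protein and changed by different amounts, the 250 bases before the RefSeq transcription start of each are shown, 5′ to 3′ on the coding strand. Capitals mark CCAAT boxes (CCAAT), GC boxes (GGGCGG), partial cyclic AMP response sites (TGACG) and TATA boxes (TATAAA), searched on both strands, so that ATTGG is a CCAAT box read backwards.
H3f3b: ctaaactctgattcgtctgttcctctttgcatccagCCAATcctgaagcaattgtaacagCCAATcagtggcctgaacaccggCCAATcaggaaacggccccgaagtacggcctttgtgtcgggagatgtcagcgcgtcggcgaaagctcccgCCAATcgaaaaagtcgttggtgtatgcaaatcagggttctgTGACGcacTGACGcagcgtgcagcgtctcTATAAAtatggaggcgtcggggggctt
H3f3a: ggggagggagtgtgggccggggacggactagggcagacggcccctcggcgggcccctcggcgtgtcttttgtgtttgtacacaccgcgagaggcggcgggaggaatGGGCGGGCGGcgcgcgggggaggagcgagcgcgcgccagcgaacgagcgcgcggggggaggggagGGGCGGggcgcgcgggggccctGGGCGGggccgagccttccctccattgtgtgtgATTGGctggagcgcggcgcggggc

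The sequences are from RefSeq on GRCm38.p6, at chr11:116024505-116024754 for H3f3b and chr1:180813606-180813855 for H3f3a. Both windows lie inside the gene spans given above, which are from GENCODE and extend beyond these RefSeq starts. The H3f3b window held 4 CCAAT boxes, 2 TGACG partial sites and a TATA box 27 to 22 bases before the start, with no GC box, and was 54% G and C. The H3f3a window held 4 GC boxes, a pair of which overlap, and 1 CCAAT box, with neither a TGACG partial site nor a TATA box, and was 77.2% G and C. Among 32841 promoter windows of the same length, 33.9% held a CCAAT box, 32.7% a GC box, 17.8% a TGACG partial site and 12.4% a TATA box. Promoter windows were matched by symbol for 8 of the 9 genes. None was matched for H2afx, the variant with the next largest rise, so its motifs were not searched. Of the 8, the H3f3b window was the one with TATAAA or TGACG. Its CCAAT boxes did not set it apart, as the H2afv window also held 4. That of H2afj held 3, those of H2afz and Cenpa 2 each, and those of H2afy and H2afy2 none. The windows of H2afy2 and Cenpa also lacked a GC box. The full palindrome TGACGTCA, which contains the partial site, was in none of the 8 and in 1.55% of all windows. The E-box CACGTG was in the window of H2afz alone, against 6.02% of all windows, and the cell cycle element TTTGAA in that of H2afv alone, against 16% of all windows. A match is a run of letters, and no binding was measured.

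H3f3b was the variant that changed most. It was counted at 2019 and 1910 CPM in line 1.1 JQ1, against 496 and 516 CPM in line 1.1 DMSO. In line 1.2 it had 1829 and 1800 CPM in JQ1, against 529 and 532 CPM in DMSO. All 4 JQ1 libraries were above all 4 DMSO libraries by a wide margin, and the DMSO libraries of both lines were close to each other. Averaged over the lines, log2 CPM was higher by 1.87 ± 0.032 (SE, edgeR quasi-likelihood test, adjusted p = 1.13e-23), with 1.96 ± 0.045 in line 1.1 and 1.77 ± 0.044 in line 1.2. Of 12413 tested genes, H3f3b ranked 136 in log2 change, and the 135 genes with larger changes had mean levels of at most 137 CPM, with a median of 1.19 CPM. Among the 169 genes whose level per length was at least that of H3f3b (mean RPKM, CPM per kilobase of transcript), its log2 change ranked 1. That set includes H3f3b and is bounded by its mean over all 8 libraries. It therefore depends in part on the JQ1 level of H3f3b.

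**Figure D2:**
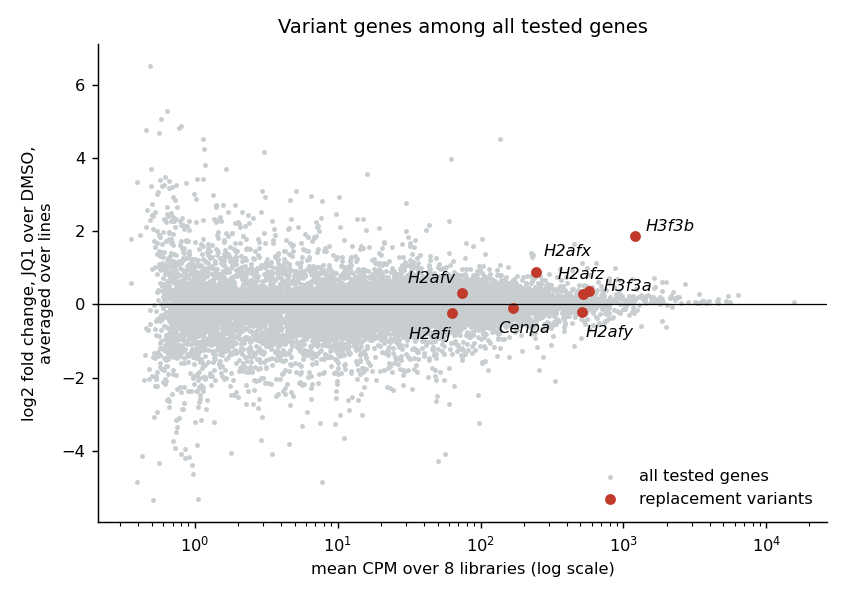
Log2 fold change of JQ1 over DMSO, averaged over the lines, against mean CPM (log scale) for all 12413 tested genes in grey and the 8 variant genes in red. H3f3b, at a mean of 1204 CPM and a log2 change of 1.87, stands above the other abundant genes, and the other variants lie closer to 0.

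H3f3a rose as well, by 1.28-fold. It had 636 and 587 CPM in line 1.1 JQ1, against 469 and 479 CPM in line 1.1 DMSO. Line 1.2 gave 688 and 665 CPM in JQ1, against 539 and 530.2 CPM in DMSO. The groups did not overlap within either line, and the change averaged 0.35 ± 0.033 in log2 CPM (SE, edgeR, adjusted p = 1.35e-09). In the annotation H3f3a shares 22.8% of its exon bases with H3f3aos and Gm17275 on the other strand. Without a stated strand setting, reads there cannot be told apart. Gm17275 had 8.89 to 11.1 CPM in JQ1 libraries and 4.86 to 6.31 CPM in DMSO libraries, far fewer than H3f3a.

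The balance of the H3.3 genes differed between JQ1 and DMSO with no overlap of libraries. H3f3b supplied 76% and 76.5% of the reads of the pair in line 1.1 JQ1, against 51.4% and 51.8% in line 1.1 DMSO. It supplied 72.7% and 73% in line 1.2 JQ1, against 49.5% and 50.1% in line 1.2 DMSO. The share was higher in JQ1 by 24.6 percentage points in line 1.1 and by 23 points in line 1.2, with SDs of at most 0.37 points within a group (n = 2). In an exact two-sided permutation test with labels exchanged within lines, p was 0.0556, the smallest that its 36 arrangements allow. Summed over both genes, H3.3 reads came to 2576 ± 110 CPM in line 1.1 JQ1 against 980.4 ± 21 CPM in line 1.1 DMSO, and to 2492 ± 37 CPM in line 1.2 JQ1 against 1065 ± 4.5 CPM in line 1.2 DMSO (SD, n = 2), a ratio of 2.63 and of 2.34.

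**Figure D3:**
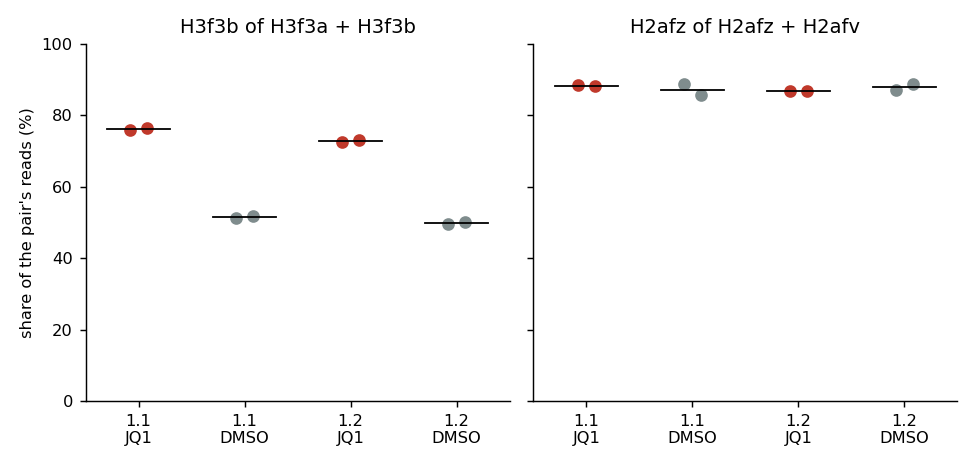
Share of reads, in percent, that came from H3f3b among H3f3a and H3f3b (left) and from H2afz among H2afz and H2afv (right), with a dot per library and a bar for the mean of 2 libraries. The H3f3b share is 72.7 to 76.5% in JQ1 libraries and 49.5 to 51.8% in DMSO libraries, whereas the H2afz share stays between 85.8 and 88.7% in all 8.

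Gene copies could divide the reads of these genes. By at least 95% identity over at least 100 coding bases, 22 other annotated genes resembled H3f3a, of which 12 are in the file with 838 reads in all, 1.58% of the reads of H3f3a, and 702 of the 838 were those of the overlapping Gm17275. For H3f3b it was 1 gene, Gm37486, with 633 reads, 0.572% of those of H3f3b. Gm37486 had 10.1 to 11.1 CPM in JQ1 and 2.81 to 3.25 CPM in DMSO libraries, and its log2 change of 1.82 (edgeR adjusted p = 4.8e-12) was close to that of H3f3b. H3f3c, an intronless H3.3 gene, had 29 reads in all. The number of reads that such copies took from the parent genes was not tested.

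H2afx encodes H2A.X, whose tail is phosphorylated at DNA breaks by kinases that include ATM. Its mRNA is known in both a stem-loop and a polyadenylated form. The gene is annotated as a single exon on chromosome 9 (chr9:44334694-44336077, plus strand). It had 311 and 308 CPM in line 1.1 JQ1, against 163 and 164 CPM in line 1.1 DMSO. The counts in line 1.2 were 329 and 316 CPM in JQ1, against 180.4 and 179 CPM in DMSO. All JQ1 libraries were above all DMSO libraries, and the mean log2 change over the lines reached 0.88 ± 0.033 (SE, adjusted p = 5.25e-17). H2afx and H3f3b also passed a test against a fold change of 1.5 in the averaged effect and in each line, and the other 6 tested variants did not. Among all 12413 genes tested, 1458 passed it for the averaged effect, 1184 in line 1.1 and 1082 in line 1.2. Of the annotated exon bases of H2afx, 10.2% lie in other genes, against 7.7% for H2afj and 7.36% for H2afy. The genes that overlap these variants are not in the count file, so no reads were counted under them. The annotation release used for counting is not stated.

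The H2A.Z genes H2afz (chr3:137864487-137866922) and H2afv (chr11:6427229-6444443) encode near-identical variants that are exchanged into nucleosomes beside promoters. H2afz had 617 and 556 CPM in line 1.1 JQ1, against 486 and 403 CPM in line 1.1 DMSO. Line 1.2 gave 568 and 544 CPM in JQ1, against 474 and 509 CPM in DMSO. JQ1 libraries were above DMSO libraries within each line, but the DMSO libraries of line 1.1 differed among themselves by more than those of any other variant. Over both lines the log2 change came to 0.29 ± 0.045 (SE, adjusted p = 5.86e-06, edgeR), with 0.40 ± 0.064 in line 1.1 and 0.18 ± 0.064 in line 1.2 (adjusted p = 0.0238). It was 0.45 with the level of Gm42418, a gene that overlaps ribosomal RNA repeats, as a covariate. The call in line 1.2 was lost with DESeq2 (adjusted p = 0.222), when libraries were scaled by their totals alone (0.13, adjusted p = 0.0914), and without JQ1 replicate 1, JQ1 replicate 2 or DMSO replicate 1 of that line (log2 changes of 0.15, 0.21 and 0.13, adjusted p = 0.181, 0.0531 and 0.215, edgeR).

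H2afv had 81.1 and 74.5 CPM in line 1.1 JQ1, against 61.8 and 66.7 CPM in line 1.1 DMSO. Its level in line 1.2 was 86 and 83 CPM in JQ1, against 70.9 and 64.9 CPM in DMSO. The groups did not overlap within a line, and log2 CPM was higher by 0.30 ± 0.046 on average (SE, edgeR, adjusted p = 5.01e-06). H2afz supplied 88.4% and 88.2% of the reads of the H2A.Z pair in line 1.1 JQ1, against 88.7% and 85.8% in line 1.1 DMSO. It supplied 86.9% and 86.8% in line 1.2 JQ1, against 87% and 88.7% in line 1.2 DMSO. These shares overlapped between JQ1 and DMSO, differing by 1.04 points in line 1.1 and -1.03 points in line 1.2 (exact permutation p = 1 for the mean of the lines, two-sided). The coding sequences of H2afz and H2afv are identical at 304 of 384 bases, and 6 other annotated genes resemble H2afz by the rule above. The 4 of them in the file had 15.2% as many reads as H2afz itself, mostly in Tmcc1 and Gm8203.

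H2afy encodes macroH2A1, a variant with a large domain beside its histone fold (chr13:56073619-56136361). It had 461 and 472 CPM in line 1.1 JQ1, against 553 and 570.0 CPM in line 1.1 DMSO. Line 1.2 gave 494 and 488 CPM in JQ1, against 545 and 543 CPM in DMSO. All 4 JQ1 libraries were below all 4 DMSO libraries, with a change of -0.21 ± 0.030 in log2 CPM (SE, edgeR, adjusted p = 2.2e-06). In line 1.2 the change was -0.15 ± 0.043 (adjusted p = 0.00624), and this call was lost without JQ1 replicate 2 of that line (-0.14, adjusted p = 0.061). The counts do not separate the splice forms of macroH2A1.

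H2afj, which encodes the H2A variant H2A.J, is a single exon on chromosome 6 (chr6:136808244-136810074). It had 62 and 53.6 CPM in line 1.1 JQ1, against 69 and 73 CPM in line 1.1 DMSO. The level in line 1.2 was 57.5 and 57.2 CPM in JQ1, against 64.2 and 67.4 CPM in DMSO. JQ1 libraries were below DMSO libraries in each line, and the change averaged -0.25 ± 0.049 in log2 CPM (SE; edgeR, adjusted p = 0.000132). The changes within lines were less firm. That in line 1.1 (-0.29, adjusted p = 0.00107) was lost without its JQ1 replicate 2 (-0.19, adjusted p = 0.0587), and that in line 1.2 (-0.20, adjusted p = 0.0211) was lost with DESeq2 (adjusted p = 0.105) and without JQ1 replicate 1, JQ1 replicate 2 or DMSO replicate 2 of line 1.2 (-0.20, -0.20 and -0.16).

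Cenpa encodes CENP-A, the H3 variant that marks the centromere, and is transcribed mainly in G2 (chr5:30666777-30674830). It had 174 and 171 CPM in line 1.1 JQ1, against 179 and 165 CPM in line 1.1 DMSO, so that the groups overlapped. In line 1.2 it had 155 and 153 CPM in JQ1, against 182 and 170.1 CPM in DMSO, with no overlap. On average log2 CPM changed by -0.09 ± 0.037 (SE, edgeR, adjusted p = 0.0313), with 0.003 ± 0.052 in line 1.1 and -0.19 ± 0.053 in line 1.2 (adjusted p = 0.00421). The averaged call was lost with DESeq2 (adjusted p = 0.102), with no filter on low counts (adjusted p = 0.0528) and with the Gm42418 covariate (-0.03). It was also lost in 6 of 8 fits that left out 1 library, all except those without DMSO replicate 2 of line 1.1 or of line 1.2, over a range of -0.12 to -0.06. The call in line 1.2 was lost without DMSO replicate 1 of that line (-0.14, adjusted p = 0.0856). Gm42418 itself had 475 to 2644 CPM in JQ1 and 341 to 977 CPM in DMSO libraries. It was called higher in JQ1 (log2 change 0.99, edgeR adjusted p = 5.93e-05), so fits with it as a covariate cannot separate its level from JQ1. Beyond those fits, its part in the result was not tested.

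**Figure D4:**
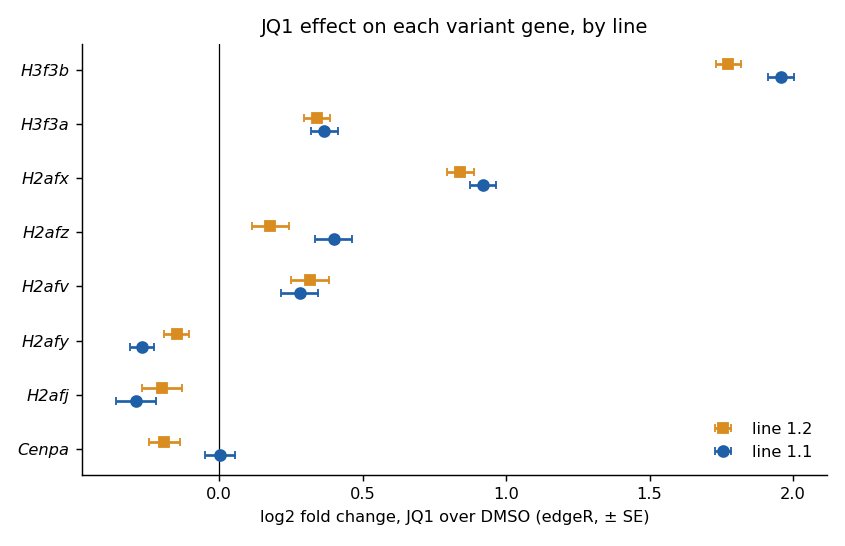
Log2 fold change of JQ1 over DMSO for each tested variant gene, with line 1.2 as squares above line 1.1 as circles, and bars of 1 SE from the edgeR fit. H3f3b is at 1.77 in line 1.2 and 1.96 in line 1.1, and Cenpa is at -0.19 in line 1.2 and 0.003 in line 1.1.

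Whether the lines responded alike was asked with a test of the difference of their JQ1 effects. Within line 1.2, where 49.4% of all genes were called, 24.4% higher and 25.0% lower, 5 variants rose and 3 fell. Within line 1.1, where 51.0% were called, 24.9% higher and 26.1% lower, 5 rose, 2 fell and Cenpa did not pass. None of the 8 passed the interaction test in edgeR (adjusted p from 0.436 to 0.948), against 0.113% of all genes, 0.0806% higher and 0.0322% lower. At an unadjusted p under 0.05 there were 3 of the 8, against 1000 of the 12413 genes tested. These were H3f3b (a difference of -0.18 ± 0.061 in log2 change), Cenpa (-0.19 ± 0.074) and H2afz (-0.22 ± 0.090). With DESeq2 none of the 8 passed either. Without DMSO replicate 1 of line 1.1, the differences of H2afz (-0.36, edgeR adjusted p = 0.000744) and Cenpa (-0.25, edgeR adjusted p = 0.0245) passed. Without DMSO replicate 2 of line 1.1 the difference of H2afz was -0.10 (edgeR adjusted p = 0.693) and that of Cenpa -0.14 (edgeR adjusted p = 0.515), and without JQ1 replicate 1 of line 1.1 that of H2afz was -0.14 (edgeR adjusted p = 0.908). Leaving out DMSO replicate 1 of line 1.1 also raised the count over all genes to 445.

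In DMSO alone, 1 of the 8 tested variants, H3f3a, passed for line 1.2 minus line 1.1, against 6.77% of all genes, 3.59% higher and 3.17% lower. It had 539 and 530.2 CPM in line 1.2 DMSO and 469 and 479 CPM in line 1.1 DMSO, a log2 difference of 0.17 ± 0.046 (SE, edgeR adjusted p = 0.0246). That call was lost with DESeq2 (adjusted p = 0.0613), in a fit of the 4 DMSO libraries alone (adjusted p = 0.106), and without DMSO replicate 1 or DMSO replicate 2 of line 1.2 (adjusted p = 0.175 and 0.13). H2afx was at 0.14 ± 0.048 and H2afz at 0.14 ± 0.064, neither of which passed (adjusted p = 0.0882 and 0.205). The H2afz difference passed with no filter on low counts (0.14, edgeR adjusted p = 0.0392) and without DMSO replicate 1 of line 1.1 (0.28, edgeR adjusted p = 0.00019). It was 0.02 without DMSO replicate 2 of line 1.1 and 0.09 without DMSO replicate 2 of line 1.2 (edgeR adjusted p = 0.876 and 0.67).

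Compared per length, the order of the variants differed between JQ1 and DMSO. In line 1.1 DMSO, H2afz had the highest level at 416 ± 55 RPKM, followed by H2afy at 274 ± 5.8, H3f3b at 201 ± 5.5 and H3f3a at 167 ± 2.5 RPKM (SD, n = 2). H2afx at 118 ± 0.48 and Cenpa at 117 ± 7 RPKM did not differ beyond their spread, and H2afv (39.4 ± 2.1 RPKM) and H2afj (38.8 ± 1.5 RPKM) were lowest and within each other's spread. In line 1.1 JQ1, H3f3b was highest at 781 ± 31 RPKM, above H2afz at 549 ± 40 RPKM. H2afy (228 ± 3.8), H2afx (224 ± 1.6) and H3f3a (215 ± 12 RPKM) followed within about their spread of each other, ahead of Cenpa (118 ± 1.6), H2afv (47.6 ± 2.8) and H2afj (31.6 ± 3.3 RPKM). In line 1.2 JQ1 the highest were H3f3b (722 ± 8.2) and H2afz (520.1 ± 16 RPKM), and in line 1.2 DMSO H2afz (459.7 ± 23) and H2afy (266 ± 0.54 RPKM). Among 12319 genes ranked by RPKM, H3f3b stood at 117 in line 1.1 JQ1 and 421 in line 1.1 DMSO, and at 133 in line 1.2 JQ1 and 391 in line 1.2 DMSO. These levels use 1 principal transcript per gene and would shift with another choice.

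Summed over the 9 genes, replacement variants made up 4106 to 4361 CPM in JQ1 libraries and 2437 to 2595 CPM in DMSO libraries. H3f3b alone gave 1800 to 2019 CPM of this in JQ1 libraries and 496 to 532 CPM in DMSO libraries. The sum does not describe each variant, as 5 of the 8 tested rose and 3 fell. The 61 clustered core histone genes in the file summed to 137 to 166 CPM in JQ1 libraries and 48.2 to 55.3 CPM in DMSO libraries. Of 17 clustered genes tested, 16 rose and 1 did not pass, and their median log2 change was 1.42. Clustered genes are near-identical to each other, so their reads are uncertain, and whether poly(A) selection was used is not given in the sources used here.

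The genes that handle these variants were counted list by list, beside the same background of 30.7% higher and 31.3% lower. Of 10 H3.3 chaperone genes, 3 rose, 1 fell and 6 did not pass, and the median log2 change was 0.04. Ubn1 and Ubn2, which encode subunits of the HIRA complex, rose by 0.53 ± 0.036 and 0.31 ± 0.047 (SE, edgeR adjusted p = 6.15e-12 and 3.22e-06). Ubn1 had 168 ± 3 CPM in line 1.1 JQ1 and 119.6 ± 6 CPM in line 1.1 DMSO, and 173 ± 4.4 CPM in line 1.2 JQ1 and 116 ± 0.97 CPM in line 1.2 DMSO (SD, n = 2). Cabin1, another HIRA partner, rose by 0.12, and Daxx fell by 0.16 on the log2 scale.

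Of 17 genes that exchange H2A.Z or H2A.X, 6 rose, 8 fell and 3 did not pass (median log2 change -0.02). Ep400, the ATPase of a complex that places H2A.Z, rose by 0.41, and Dmap1 of the same complex fell by 1.24 ± 0.094. Ruvbl1, a helicase shared by these remodellers, fell by 0.34 and Ssrp1, a subunit of the FACT chaperone, fell by 0.34. Of 14 genes of H2A.X signalling, 3 rose, 7 fell and 4 did not pass (median log2 change -0.11). Atm, a kinase that phosphorylates H2A.X, fell by 0.52, and its partners Nbn by 0.81 and Mre11a by 0.45. Of other kinase genes in this list, Atr rose by 0.23 and Prkdc, at -0.01, did not pass (edgeR adjusted p = 0.000182 and 0.911). Eya3, a phosphatase of the H2A.X tail, rose by 0.41.

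Of 14 genes of CENP-A loading and the centromere, 4 rose, 5 fell and 5 did not pass (median log2 change -0.08). Cenpk, a gene of the centromere complex that binds around CENP-A, fell by 0.70, and Cenpn, which reads CENP-A nucleosomes, rose by 0.32 and Cenpb by 0.21. Of 16 G2/M genes 1 rose, 11 fell and 4 did not pass (median log2 change -0.14). Among those that fell were Plk1 (-0.51), Ube2c (-0.27), Cdk1 (-0.26) and Bub1b (-0.25). Of 16 S-phase genes 5 rose, 8 fell and 3 did not pass (median log2 change -0.13), with Rrm2 (0.41) and Cdc6 (0.48) higher and Tk1 (-0.72) and Mcm3 (-0.50) lower.

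Of 11 genes of replication-coupled assembly and histone mRNA processing, 4 rose, 5 fell and 2 did not pass (median log2 change -0.10). Slbp, which binds the stem-loop of clustered histone mRNA, rose by 0.90 ± 0.033 (SE, edgeR adjusted p = 5.1e-17). It had 326 ± 11 CPM in line 1.1 JQ1 against 164 ± 0.89 CPM in line 1.1 DMSO, and 287 ± 4.1 CPM in line 1.2 JQ1 against 164 ± 2.4 CPM in line 1.2 DMSO (SD, n = 2). Zfp473, a partner of histone pre-mRNA processing, fell by 1.15, and the cleavage factor genes Cpsf2 and Cpsf3 fell by 0.62 and 0.30.

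**Figure D5:**
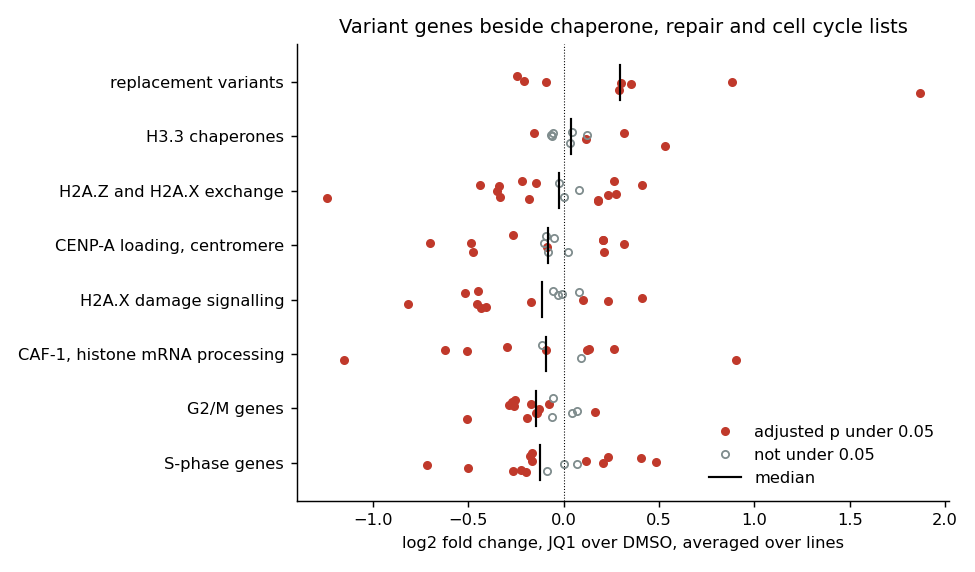
Log2 fold change of JQ1 over DMSO, averaged over the lines, of each tested gene in the variant list and in 7 lists of chaperone, repair and cell cycle genes. Filled red dots passed an adjusted p of 0.05, open grey dots did not, vertical bars are list medians, and vertical jitter carries no meaning; H3f3b at 1.87 lies farthest to the right.

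The neighbouring genes described here did not share the rise of the 2 variants that rose most. Measured between GENCODE gene spans rather than from the RefSeq start, H3f3b lies 2360 bases from Unk and 9193 bases from Galk1. Unk is upstream on the other strand, and Galk1 is downstream. Unk changed by -0.22 ± 0.047 (edgeR adjusted p = 0.000198) and Galk1, which encodes galactokinase, by -0.27 ± 0.043 (adjusted p = 5.52e-06). H2afx lies 794 bases from the end of Dpagt1, an enzyme of protein glycosylation, which changed by -0.93 ± 0.072 (edgeR adjusted p = 6.43e-11). Among the other neighbours Tifab, 37343 bases before H2afy, changed by -2.35 ± 0.073 and Ppia, 7412 bases from H2afv, by 0.24 ± 0.030.

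Across the 8 libraries, log2 CPM of H3f3b and H2afx had a Pearson correlation of 0.992, and H2afy had one of -0.962 with H3f3b. The 8 points fall into 4 JQ1 and 4 DMSO libraries, a split common to all genes, so these values are a description. Of the 8421 genes compared, which averaged 5 CPM or more, 823 had a correlation of at least 0.95 with H3f3b, 703 with H2afx, 139 with H3f3a and 30 with H2afz. The genes closest to H3f3b were Rint1 (0.9995), Aplp2 (0.9987) and Poldip3 (0.9985). Those closest to H2afx were Pja2 (0.9993), the clustered histone gene Hist1h2bc (0.9991) and Sesn3 (0.9990). Those closest to H3f3a were Wdr6 (0.9918), Abhd15 (0.9908) and Zwint (0.9885), and those closest to H2afz were Rbbp4, itself a histone-binding protein (0.9790), Cript (0.9749) and Atp6ap2 (0.9716).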

How the data were processed

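RNA of 8 libraries was extracted with a column kit and made into libraries with a TruSeq RNA kit, per the labels' protocols. FastQC, cutadapt 1.7, TopHat, Bowtie2, HTSeq, limma and the build GRCm38 (mm10) are listed for the authors' work, per the submitters' processing notes. Their roles, the annotation release and the strand setting are not stated there. The authors deposited unnormalised read counts for each Ensembl gene. The 5 summary lines that name no gene were left out. The no-feature line held 12.3 to 14.4% of gene, no-feature and ambiguous reads together, and the ambiguous line 1.54 to 1.67%. Of 43629 identifiers, 42462 matched a symbol, and coordinates are from GENCODE M21 (GRCm38).

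In R 4.3.3, 12413 genes kept by filterByExpr (minimum count 10, minimum total 15) were tested with edgeR 4.0.16 after TMM scaling, with 4 group means, 4 residual degrees of freedom and two-sided quasi-likelihood F tests. P-values were Benjamini-Hochberg adjusted over all genes, with a threshold of 0.05, and each SE was derived from its F. CPM, log2 changes and RPKM (longest APPRIS principal transcript) were computed here. DESeq2 1.42.0 and limma-voom 3.58.1 were alternatives, beside other scalings, filters, a replicate block, a fold threshold, a covariate and leaving out each library. Exact permutation tests exchanged labels within lines. Near-identical genes were found with BLAST+ 2.17.0, and the scripts were checked on simulated counts.

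The variant genes and all lists were chosen with earlier results of these data known. All 9 variants are named. From each list, up to 4 genes averaging 1 CPM or more are named, by lowest unadjusted p. Genes of like pattern are the 3 with the highest correlation to each of the 4 variants that varied most, and neighbours are the nearest tested gene on each side. A few genes that this rule names are not reported here. Tifab and Ppia were chosen from the neighbours, and Cdh5, Atr, Prkdc, Gm17275, Gm37486, Tmcc1, Gm8203 and H3f3c outside that rule, after their values were seen.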

Additional observations from a re-analysis of the deposited data

How the results depend on the processing

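H3f3b and H2afx kept their direction and call for the averaged JQ1 effect and in each line under every alternative run, with averaged log2 changes of 1.82 to 1.89 and 0.84 to 0.90. Over the 8 tested variants and 5 comparisons, 653 of 712 recomputed values kept direction and call, 43 lost a call, 4 gained one and 12 changed sign. Values that had no call to lose count among the 653, and the test against a fold change of 1.5 is among the alternatives. Against a fold change of 1.5, the counts of genes called were 1458 (averaged), 1184 (line 1.1), 1082 (line 1.2), 2 (interaction) and 87 (line difference in DMSO), since that test asks for larger changes. The interaction count of 14 was 8 with DESeq2, 80 with no filter on low counts, 8 with at least 5 CPM in 2 libraries and 26 with the replicate block. The line difference of 840 genes was 306 with DESeq2 and 441 in a fit of only the 4 libraries compared. Leaving out 1 library gave 7 to 445 genes for the interaction, 308 to 1314 for the line difference, 6966 to 7744 for the averaged effect, 4885 to 6205 for line 1.1 and 4825 to 6706 for line 1.2. The interaction count was 445 and 42 without DMSO replicates 1 and 2 of line 1.1, 7 without DMSO replicate 1 of line 1.2, and 8 without JQ1 replicate 1 of line 1.1 or JQ1 replicate 2 of line 1.2. The line difference was 1314 without DMSO replicate 1 of line 1.1, and 380 and 308 without DMSO replicates 1 and 2 of line 1.2. The cause of these shifts was not tested.

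With labels exchanged over all 8 libraries, the H3f3b share difference of 23.8 points had an exact permutation p of 0.0286, the smallest that 70 arrangements allow. With the replicate block (signs exchanged within pairs) p was 0.125, the smallest of 16 arrangements. Same-numbered libraries shared little deviation from their group means (correlations of -0.06 to 0.05 over 9382 genes). Such values do not show whether the libraries were prepared in pairs. The replicate block changed no call of a variant gene. Without 1 library the H2afz share difference ranged from -0.73 to 0.73 points. No value that changed sign passed its test. The JQ1 effect on Cenpa in line 1.1 was -0.0124 with upper-quartile scaling, -0.0384 with library totals and -0.0009 with the stricter filter, and -0.0515 to 0.0634 without 1 library. Without 1 library, Cenpa ranged from -0.0272 to 0.0877 for the line difference, and the interaction from -0.0832 to 0.0328 for H3f3a, -0.0254 to 0.102 for H2afv and -0.0062 to 0.2047 for H2afj.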
